A study of Homo sapiens with 6 samples.

Results

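The genes examined here are 9 genes of the MHC class II system, namely HLA-DRA, HLA-DRB1, HLA-DPA1, HLA-DPB1, HLA-DMA, HLA-DMB, HLA-DOA, CD74 and CIITA. They were found by matching the RefSeq accession of each Agilent catalogue probe on the array to a gene symbol, which gave 16 probes for the 9 genes, out of 19721 genes with a symbol. Expression had been measured with 6 one-color arrays in REH cells, an established leukemia line of human B-cell precursors in which ETV6 is fused to RUNX1 and the remaining ETV6 allele is deleted. Control cells (n = 3) received a non-targeting short hairpin RNA (shRNA) and knockdown cells (n = 3) an shRNA directed at the fusion through its ETV6 portion. According to the study's methods, the control hairpin was a second ETV6 hairpin that does not hit the fusion transcript. Both hairpins came from lentiviral vectors with green fluorescent protein, and both groups were sorted for fluorescent cells 72 hours after transduction. One line with one active hairpin was studied, so other lines and an independent hairpin against the fusion were not analysed here.

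MHC class II molecules present peptides from the endosomal route to helper T cells and are carried by B-lineage cells, dendritic cells and macrophages. Each is a pair of an alpha and a beta chain, which the invariant chain CD74 accompanies until proteases in the endosome degrade it. HLA-DM then exchanges the remaining CD74 fragment for peptide, and HLA-DO holds HLA-DM in check. CIITA, the class II transactivator, binds no DNA itself but is recruited by the RFX, CREB and NF-Y factors that sit on the X and Y boxes of class II promoters, and it sets how much of these genes is transcribed.

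To show what these promoters have in common, the windows from 250 bases before to 50 bases after each RefSeq gene start (GRCh38.p14) were searched on both strands for AGNAAC, part of the X box, followed after 24 to 32 bases by ATTGG, the core of the Y box that NF-Y binds. A window was at hand for 7 of the 9 genes, with 8 windows in all, and 2 windows held the pair, those of HLA-DRB1 and HLA-DOA. Among all 35116 windows, 137 held it (0.39%). ATTGG by itself was present on either strand in 34.6% of all windows, so it is a frequent word. A match of letters is a description and not a binding site, and the array design itself used hg19. Both matches are printed below with 20 bases on each side, read along the gene's own strand, with the X box part and the Y box core in capitals. The first lies on chr6:32589870-32589947, minus strand, where the pair begins 79 bases before the start of HLA-DRB1 and has a gap of 27 bases. The second lies on chr6:33009634-33009712, minus strand, where it begins 101 bases before the start of HLA-DOA and has a gap of 28 bases.
HLA-DRB1: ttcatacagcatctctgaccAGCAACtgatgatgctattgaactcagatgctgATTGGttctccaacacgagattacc
HLA-DOA: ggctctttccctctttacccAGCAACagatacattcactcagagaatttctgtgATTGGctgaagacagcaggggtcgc

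The windows of HLA-DPB1 and HLA-DMA held ATTGG on the gene's own strand without the first member of the pair as spelled here. HLA-DMA held a second one on that strand, 49 bases before the gene start, and HLA-DPB1 one on the opposite strand, 75 bases before the gene start. The match farthest from the gene start is shown for each with ATTGG in capitals, HLA-DPB1 from chr6:33075846-33075910 (plus strand, 99 bases before the gene start) and HLA-DMA from chr6:32953157-32953221 (minus strand, 79 bases before the gene start).
HLA-DPB1: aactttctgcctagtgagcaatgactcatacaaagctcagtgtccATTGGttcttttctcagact
HLA-DMA: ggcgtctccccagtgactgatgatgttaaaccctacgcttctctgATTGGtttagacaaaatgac

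First, the arrays, the targeted gene and the identity of the cells were checked. By the flag of the scanner software, signal well above background was found for 45.75% to 50.95% of probes on an array. ETV6 probe A_33_P3356325 was lower on all 3 knockdown arrays, at 7.50, 7.46 and 7.29, than on the control arrays, at 7.92, 8.05 and 8.37, a log2 fold change of -0.70 (SE 0.14) that missed the threshold (limma adjusted p = 0.0571). For the other ETV6 probe, no array gave signal well above background. Whether either probe lies in the fused portion was not analysed here. The study itself reported silencing of the fusion in REH cells by Western blot and RT-qPCR, representative of 3 biological replicates. Of 14 B-cell precursor markers, 13 were well above background on all 6 arrays. Monocyte, macrophage and dendritic cell markers, whose cells also carry class II molecules, were flagged well above background on none of the 6 arrays for 7 of the 11 genes with a probe. Another 3 of these genes, CD14 and CSF1R among them, were well above background on all 6 arrays.

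All values below are on the generalised log2 scale of variance-stabilized intensities, and log2 fold changes are knockdown minus control. A probe is said to be called where its limma p-value, adjusted over all 29069 retained probes by the Benjamini-Hochberg method, was under 0.05. On this scale 452 probes were called (1.55%), 115 higher and 337 lower. Levels of different probes are not compared with each other, since probes differ in how well they bind.

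Next, the class II genes, CD74 and CIITA were compared between knockdown and control cells. All 9 genes were expressed in REH cells, as each of the 16 probes was well above background on all 6 arrays and was retained. None of the 16 probes was called, with limma adjusted p from 0.323 to 0.986. One of the 16, a CIITA probe, had an unadjusted p under 0.05, whereas 12.2% of all retained probes did. Log2 fold changes ran from -0.26 to 0.24 with a median of -0.04, and 6 probes were higher and 10 lower. Over all retained probes the median was -0.0037, and the median size of a change was 0.120 against 0.0786 for the 16 probes. On this scale, for every one of the 16, the 95% confidence interval of the ratio of knockdown to control lay within 1.5-fold in either direction, with outer bounds of 0.690 and 1.40. That none was called does not show that these genes are expressed alike in both groups, since differences inside each probe's interval remain possible. In RNA from a whole culture, fewer cells with a transcript and less transcript per cell cannot be told apart.

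**Figure D1:**
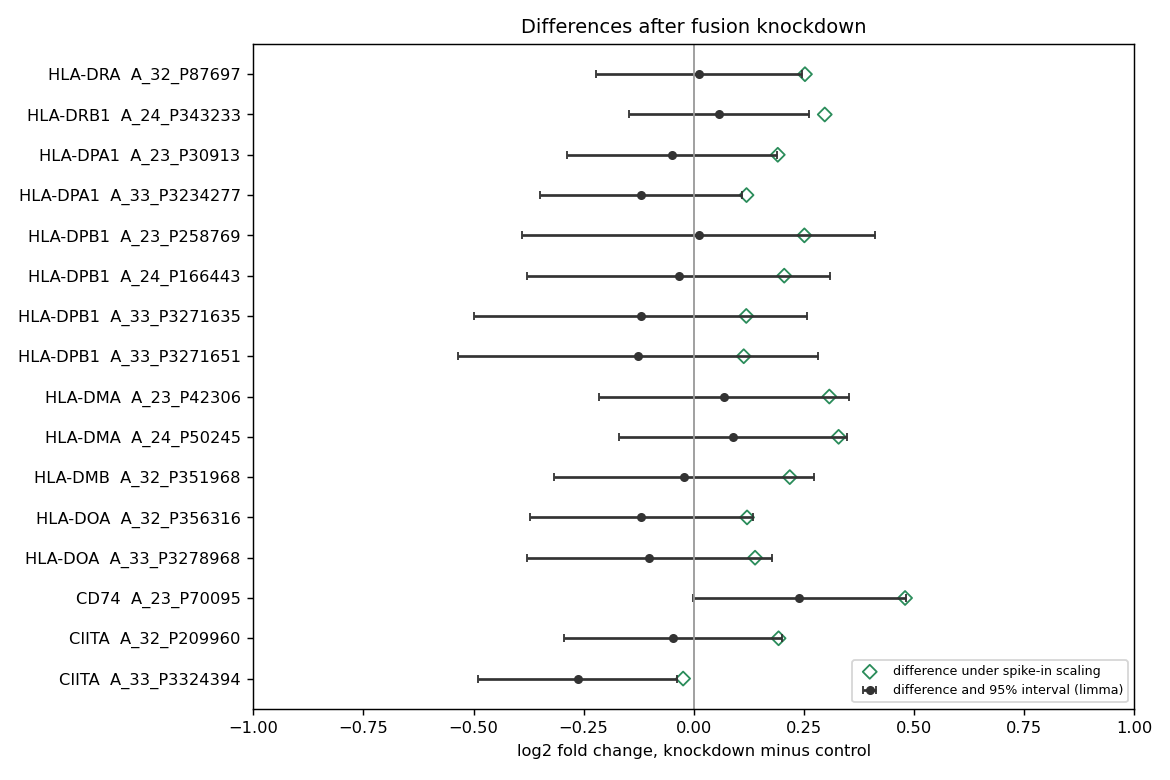
Log2 fold change (knockdown minus control, horizontal axis) of each of the 16 probes, with the 95% confidence interval from limma (bars) and the value under spike-in scaling (open diamonds). All intervals but that of the second CIITA probe include 0, and spike-in scaling places the probes between -0.02 and 0.48.

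A direction on this scale is set against the typical probe, which is assumed not to shift. Scaling on the spike-in probes moved the median of all probes to 0.24 and the 16 class II probes to between -0.02 and 0.48, and 9 probes that were lower became higher. The split of the 16 probes went from 6 higher and 10 lower to 15 higher and 1 lower, and it was 3 higher and 13 lower (median -0.13) without knockdown replicate 1, so no common direction can be given for these genes. Under spike-in scaling, 8 of the 16 intervals of the ratio stayed within 1.5-fold, and that of CD74 ran from 1.095 to 1.775. Neither setting called any of the 16 probes.

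HLA-DR is usually the most abundant class II molecule on B-lineage cells. The alpha chain gene HLA-DRA measured 15.15, 15.08 and 15.16 on the 3 control arrays and 15.28, 15.06 and 15.09 on the 3 knockdown arrays. The groups overlapped, with knockdown replicate 1 the highest array, and the log2 fold change was 0.01 (SE 0.10, adjusted p = 0.972). The beta chain gene HLA-DRB1 measured 15.77, 15.82 and 15.73 in control and 15.85, 15.82 and 15.83 in knockdown. Although the 3 knockdown arrays lay above the 3 control arrays, the nearest arrays of the groups, both replicate 2, were 0.01 apart, and the difference of the means was 0.06 (SE 0.09, adjusted p = 0.837). Non-overlapping groups were found for 3 of the 16 probes and for 18.6% of all retained probes. HLA-DRB1 has close copies in HLA-DRB3, HLA-DRB4 and HLA-DRB5, and signal from one copy on the probe of another cannot be separated here. These 3 genes had log2 fold changes of 0.05, 0.04 and 0.01.

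**Figure D2:**
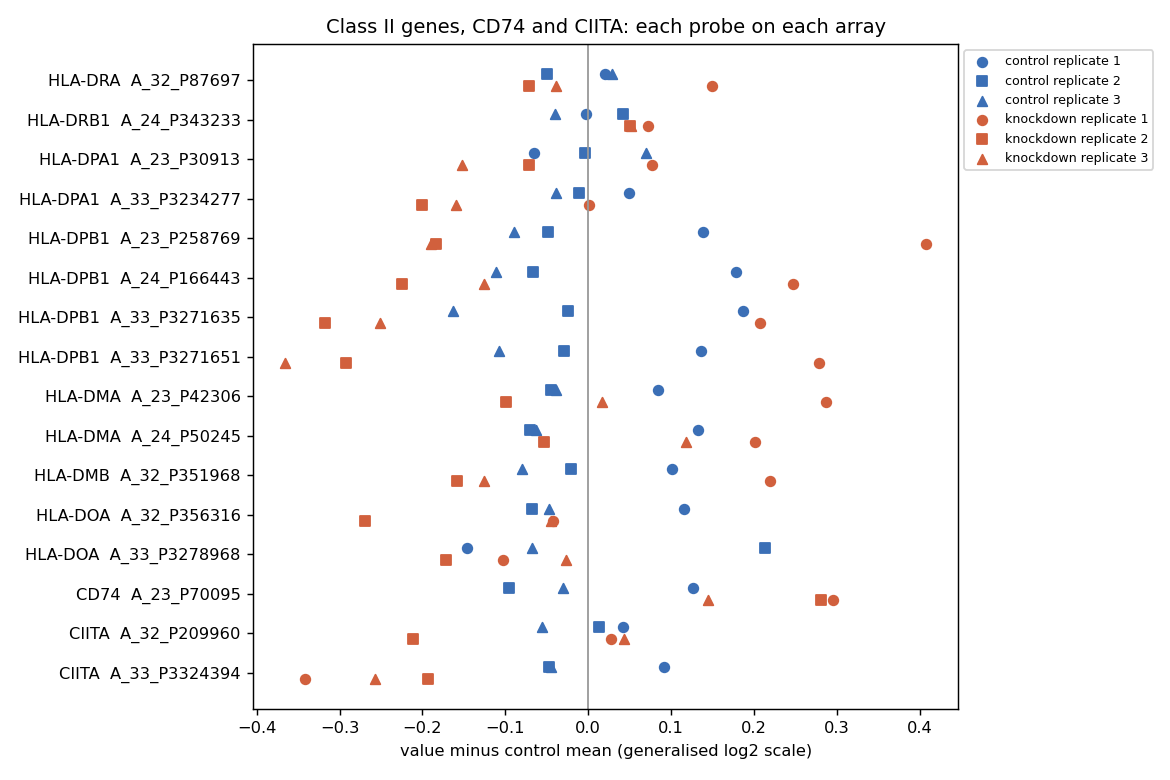
Value of each probe on each array minus the control mean of that probe (horizontal axis, generalised log2 scale), for the 3 control arrays (blue) and the 3 knockdown arrays (orange), with a symbol for each replicate number. Control and knockdown arrays overlap for all probes except those of HLA-DRB1, CD74 and the second CIITA probe, and knockdown replicate 1 is the highest array for 11 of the 16 probes.

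HLA-DP is a second pair of class II chains, encoded by 2 genes that lie head to head. For the alpha chain gene HLA-DPA1, probe A_23_P30913 measured 16.54, 16.60 and 16.67 in control and 16.68, 16.53 and 16.45 in knockdown. Its highest and its lowest array were both knockdown arrays, and the log2 fold change was -0.05 (SE 0.10, adjusted p = 0.889). Probe A_33_P3234277 of the same gene measured 15.48, 15.42 and 15.39 in control and 15.43, 15.23 and 15.27 in knockdown, a difference of -0.12 (adjusted p = 0.682).

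The beta chain gene HLA-DPB1 had 4 probes, in all of which knockdown replicate 1 was the highest array. Probe A_23_P258769 measured 16.63, 16.45 and 16.41 in control and 16.90, 16.31 and 16.31 in knockdown. Knockdown replicate 1 was thus the highest array and the other two knockdown arrays were the lowest, so that the log2 fold change was 0.01 (SE 0.17, adjusted p = 0.986). Probe A_33_P3271651 measured 15.27, 15.10 and 15.02 in control and 15.41, 14.84 and 14.76 in knockdown, a difference of -0.13 (adjusted p = 0.824). The other two probes, A_24_P166443 and A_33_P3271635, gave differences of -0.03 and -0.12. In all 4 probes replicate 1 was the highest of its group in control and in knockdown. The SD within knockdown was 0.34 for A_23_P258769 and 0.35 for A_33_P3271651, against 0.12 in control for both. Without knockdown replicate 1 all 4 probes were lower in knockdown and none was called, with differences of -0.19 (adjusted p = 0.445) for A_23_P258769, -0.18 for A_24_P166443, -0.28 for A_33_P3271635 and -0.33 (adjusted p = 0.222) for A_33_P3271651. By contrast, A_33_P3271635 was -0.02 without knockdown replicate 2, and A_33_P3271651 was -0.007 without knockdown replicate 3.

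HLA-DM, the peptide editor, was covered by 3 probes. HLA-DMA probe A_23_P42306 measured 13.94, 13.81 and 13.81 in control and 14.14, 13.75 and 13.87 in knockdown, a difference of 0.07 (SE 0.12, adjusted p = 0.866), and probe A_24_P50245 gave 0.09 (adjusted p = 0.802). With 1 array left out, A_24_P50245 ran from 0.03 to 0.16. HLA-DMB measured 13.73, 13.61 and 13.55 in control and 13.85, 13.47 and 13.51 in knockdown, a difference of -0.02 (SE 0.13, adjusted p = 0.963). For HLA-DMA probe A_23_P42306 and for HLA-DMB, the highest of the 6 values came from knockdown replicate 1 and the lowest from knockdown replicate 2.

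HLA-DOA encodes the alpha chain of HLA-DO, the inhibitor of HLA-DM, which is found mainly in B cells and the thymus. Probe A_32_P356316 measured 15.23, 15.05 and 15.07 in control and 15.07, 14.85 and 15.07 in knockdown, and the log2 fold change was -0.12 (SE 0.11, adjusted p = 0.716), or -0.04 without knockdown replicate 2 and -0.06 without control replicate 1. The second probe, A_33_P3278968, measured 6.94, 7.30 and 7.02 in control and 6.98, 6.92 and 7.06 in knockdown. Its difference of -0.10 (adjusted p = 0.789) rested on control replicate 2, without which it was 0.01.

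CD74, the invariant chain, had the largest positive difference of the 16 probes. It measured 12.56, 12.34 and 12.41 in control and 12.73, 12.72 and 12.58 in knockdown. Each knockdown array lay above each control array, by 0.17, 0.38 and 0.17 within replicates 1, 2 and 3. The log2 fold change was 0.24 (SE 0.10, 95% interval -0.001 to 0.48) and was not called (limma adjusted p = 0.413). Between alternative settings it ran from 0.19 without control replicate 2 to 0.48 under spike-in scaling, with adjusted p from 0.148 to 0.833, and it stayed positive in each. CD74 had a single probe, and which of its transcripts that probe detects was not analysed here.

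CIITA, the transactivator, gave different results with its 2 probes. Probe A_32_P209960 measured 14.07, 14.04 and 13.97 in control and 14.05, 13.82 and 14.07 in knockdown. Knockdown replicate 2 was the lowest array and the other arrays lay close together, and the log2 fold change was -0.05 (SE 0.11, adjusted p = 0.898). Probe A_33_P3324394 measured 8.24, 8.11 and 8.11 in control and 7.81, 7.96 and 7.90 in knockdown. Here all knockdown arrays lay below all control arrays, and the log2 fold change was -0.26 (SE 0.10, 95% interval -0.49 to -0.04), with an unadjusted p of 0.0273 and an adjusted p of 0.323 by limma. It was lower in knockdown in each of the alternative settings but amounted to -0.02 under spike-in scaling. CIITA is transcribed from several promoters with different first exons, and which transcripts each probe detects was not analysed here.

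The replicate numbers of the labels were then used to compare knockdown with control within each number. Values were higher in knockdown in all 3 pairs for HLA-DRB1, CD74 and HLA-DMA probe A_24_P50245, and lower in all 3 pairs for HLA-DPA1 probe A_33_P3234277 and CIITA probe A_33_P3324394. These 5 of 16 probes compare with 41.5% of all retained probes that moved one way in all 3 pairs. For HLA-DRA the differences were 0.13, -0.02 and -0.07 in pairs 1, 2 and 3, and for HLA-DPB1 probe A_23_P258769 they were 0.27, -0.14 and -0.10. With the replicate number as a block, 3.03% of all retained probes were called and none of the 16, the lowest adjusted p being 0.241 for CIITA probe A_33_P3324394.

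**Figure D3:**
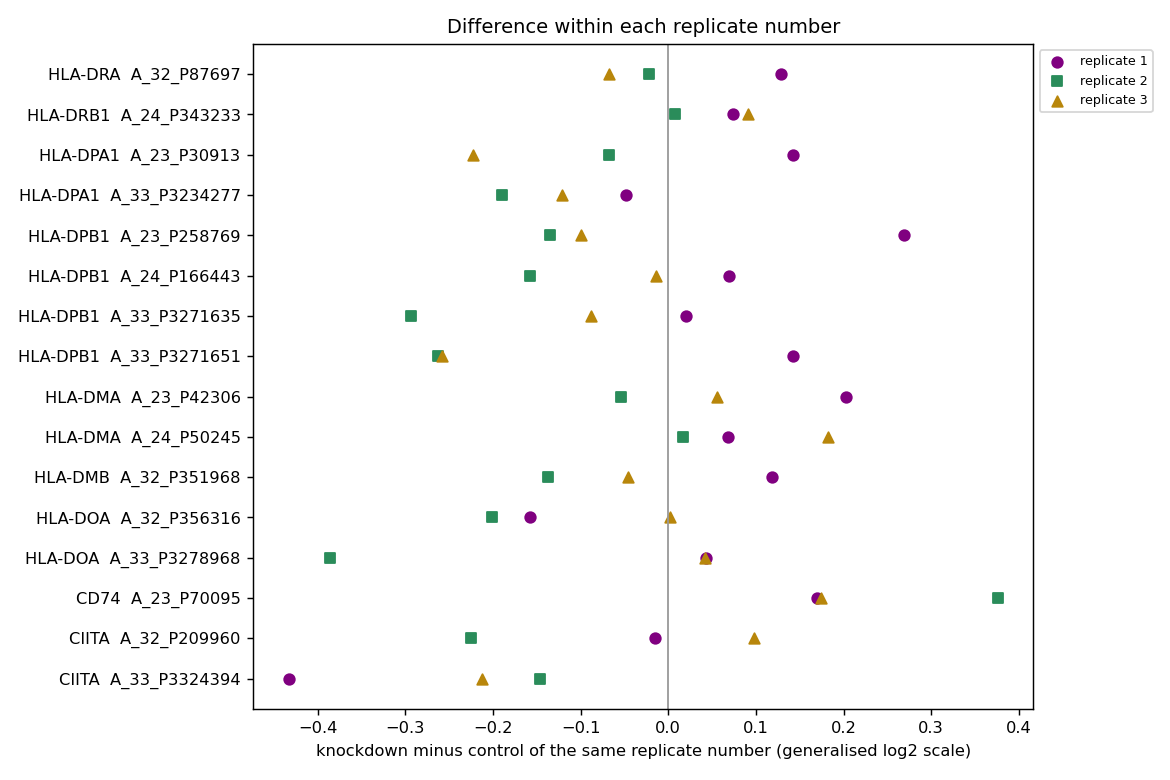
Difference of each probe between the knockdown and the control array of the same replicate number (horizontal axis, generalised log2 scale), with a symbol for each of the 3 numbers. For most HLA probes replicate 1 lies to the right and replicate 2 to the left of 0, whereas the 3 values of CD74 are all positive and those of the second CIITA probe all negative.

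Within both groups, 1 replicate number stood out in most of these probes. Replicate 1 was the highest array of its group in 12 of the 16 probes in control and in 13 in knockdown, and in both groups at once in 10. All probes of HLA-DPB1 and HLA-DMA are among these 10, and probes of the same gene are not independent. Among all retained probes, 23.5% had replicate 1 highest in both groups. Knockdown replicate 2 was the lowest of the 6 arrays in 9 of the 16. As a mean over the 9 genes with each gene centred on its own mean, the levels were 0.05, -0.04 and -0.04 on control replicates 1, 2 and 3 and 0.16, -0.09 and -0.04 on knockdown replicates 1, 2 and 3. What distinguished the replicates was not tested. The SD within groups, pooled over both, of the 16 probes ran from 0.03 to 0.26 with a median of 0.12, against a median of 0.15 for all retained probes. By Pearson's r over the 6 arrays, the 5 genes whose profile was most like that mean were RALGAPA1 (r = 0.998), MTMR9LP (0.996), GTF2F1 (0.994), DPH5 (0.993) and TREML2 (0.992). These are the highest among all genes with a symbol and only 6 points underlie each, so they are given as a description.

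Subsequently, the remaining class II chains were examined. Of 8 genes with 10 probes, all were retained and none was called, while all 10 log2 fold changes were positive, with a median of 0.07, and 6 of the 10 were without knockdown replicate 1. The largest were those of the HLA-DQ alpha chain genes. HLA-DQA1 probe A_33_P3293049 measured 10.82, 10.91 and 11.02 in control and 11.40, 11.27 and 11.20 in knockdown, a difference of 0.37 (SE 0.10, adjusted p = 0.182). HLA-DQA2 measured 9.90, 10.15 and 10.11 in control and 10.58, 10.36 and 10.67 in knockdown, a difference of 0.49 (SE 0.12, adjusted p = 0.129). The knockdown arrays lay above the control arrays for both genes and for the other HLA-DQA1 probe (0.38, adjusted p = 0.141). Groups that did not overlap, in either direction, were found for 18.6% of all retained probes. HLA-DQA1 and HLA-DQA2 are near copies whose signals may not be separable, so these are not 3 independent observations. The partner chain HLA-DQB1 had differences of 0.01 and 0.05.

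Among the factors that CIITA works with, 21 genes with 29 probes were measured, which included the RFX subunits, NF-Y, CREB1 and the acetyltransferases CREBBP and EP300. None was called, and log2 fold changes ran from -0.19 to 0.24 with 18 probes higher and 11 lower (29 and 0 under spike-in scaling, 12 and 17 without knockdown replicate 1). By the probe of highest mean value for each gene, the largest were SIN3A, a corepressor scaffold, at 0.24 (adjusted p = 0.340) and ZXDB, a zinc finger relative of the CIITA partner ZXDC, at 0.17 (adjusted p = 0.589).

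**Figure D4:**
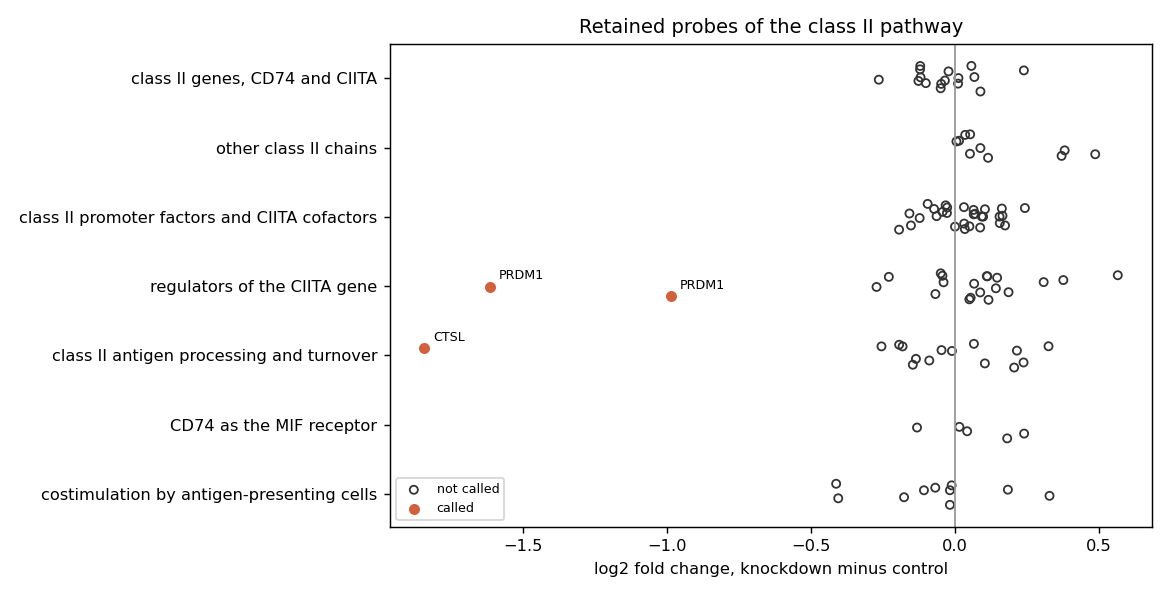
Log2 fold change (knockdown minus control, horizontal axis) of each retained probe in 7 gene lists of the class II pathway, with called probes filled and named and vertical scatter for legibility only. No probe of the class II genes, CD74 and CIITA lies outside -0.26 to 0.24, whereas PRDM1 and CTSL lie between -1.84 and -0.99.

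Regulators of the CIITA gene itself were covered by 19 genes, of which 18 were retained. Of their 21 retained probes, 2 were called, both for PRDM1 and both lower in knockdown. PRDM1 encodes BLIMP1, a repressor that silences CIITA when B cells become plasma cells. Its probe A_33_P3342081 measured 7.64, 8.0 and 7.71 in control and 6.00, 6.22 and 6.28 in knockdown, so that no knockdown array reached the lowest control array. PRDM1 fell by 1.61 on the log2 scale (SE 0.13, adjusted p = 0.00131) and was called in all 15 alternative settings that kept single probes, with log2 fold changes from -2.13 to -1.07. Probe A_23_P350451 measured 6.64, 6.77 and 6.61 in control and 5.49, 5.90 and 5.67 in knockdown and was well above background on 4 of the 6 arrays. It fell by 0.99 (adjusted p = 0.0100) and was called in 11 of the 15 settings. Calls were lost with the 75th percentile scaling of the processed signal (-1.95, adjusted p = 0.0550), with the slide row as a term (0.124) and without control replicate 2 (0.0601) or knockdown replicate 3 (0.0599). Of the activators, SPI1 (PU.1) measured 11.01, 11.10 and 11.14 in control and 11.92, 11.55 and 11.48 in knockdown, a difference of 0.57 that was not called (SE 0.13, adjusted p = 0.111). For IRF4 the difference was 0.38 (SE 0.23, adjusted p = 0.573), with overlapping groups but with 0.40, 0.36 and 0.38 in pairs 1, 2 and 3 (SE 0.08 and adjusted p = 0.0839 with the replicate block). Leaving out 1 array breaks a pair, and the IRF4 difference then ran from 0.16 to 0.59. Beside the lower PRDM1, neither CIITA probe was called in either direction.

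**Figure D5:**
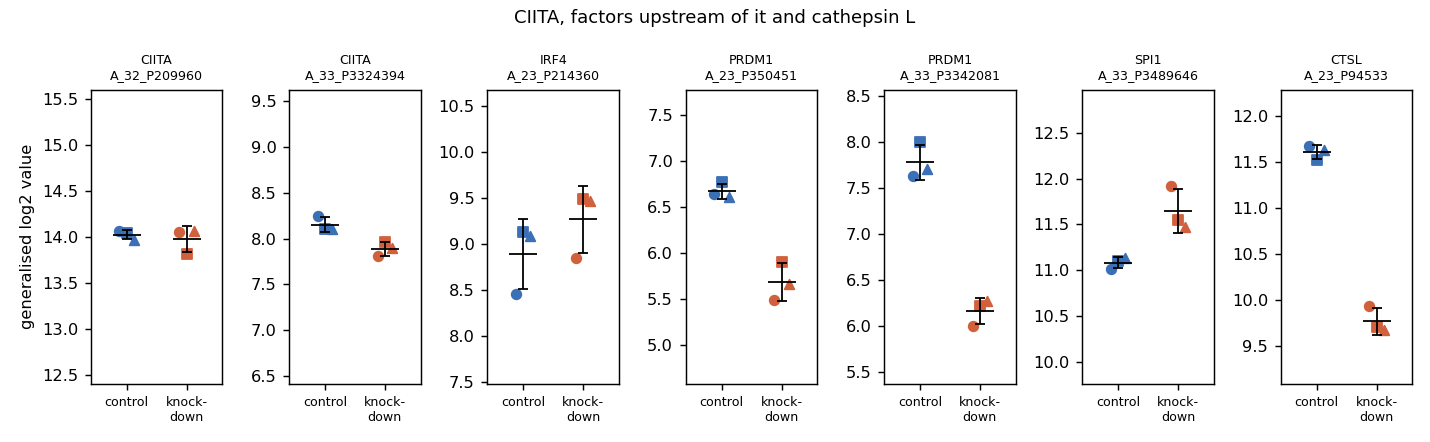
Values on the generalised log2 scale (vertical axes, all spanning the same number of units) of CIITA, IRF4, PRDM1, SPI1 and CTSL on the 3 control (blue) and 3 knockdown (orange) arrays, with the mean and SD of each group as a line and bars. Both PRDM1 probes and CTSL separate the groups by about 1 unit or more, while the CIITA probes differ by -0.05 and -0.26.

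Proteases and other proteins that process antigen and turn class II molecules over were then considered. Of 16 genes, 14 were matched to a probe by symbol (MARCHF8 and CD63 were not) and 11 were retained, with 15 probes, and 1 probe was called. CTSL, which encodes the endosomal protease cathepsin L, measured 11.68, 11.52 and 11.62 in control and 9.93, 9.70 and 9.66 in knockdown. CTSL fell by 1.84 (SE 0.11, adjusted p = 0.000598), and in the 15 settings that kept single probes it was called each time, with log2 fold changes from -1.93 to -1.60. CTSS, the protease that cleaves the invariant chain in B cells, measured 6.76, 6.66 and 6.31 in control and 6.77, 6.85 and 6.42 in knockdown, a difference of 0.10 (adjusted p = 0.837). IFI30, a thiol reductase that unfolds antigen in endosomes, had a difference of 0.21 (adjusted p = 0.734) and again its highest value, 13.26, on knockdown replicate 1. The largest differences besides CTSL were 0.33 for CTSZ and -0.25 for CTSC, both cathepsins, with adjusted p of 0.564 and 0.576. That of CTSZ was 0.09 without control replicate 3, that of CTSC -0.10 without knockdown replicate 3, and that of IFI30 -0.01 without knockdown replicate 1. The CTSC value is that of its brightest probe, and its other probes gave 0.07 and -0.19.

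CD74 also serves at the cell surface as the receptor for the cytokine MIF. None of the 5 genes of that pathway was called, with the largest differences for the coreceptors CD44 (0.24, adjusted p = 0.610) and CXCR4 (0.18, adjusted p = 0.585). Without knockdown replicate 3 these were 0.09 for CD44 and 0.10 for CXCR4. MIF itself differed by 0.02, and by 0.21 without knockdown replicate 1. Of 10 genes for the costimulatory ligands that accompany class II molecules, 8 were retained and none was called. The largest differences were found for CD86, which engages CD28, at -0.41 (SE 0.29, adjusted p = 0.634, and SE 0.09, adjusted p = 0.0848 with the replicate block) and for TNFSF4, the OX40 ligand, at -0.40 (SE 0.15, adjusted p = 0.319). With 1 array left out, the CD86 difference ran from -0.70 to -0.15 and that of TNFSF4 from -0.53 to -0.34.

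Finally, markers of cell type were set beside these values. Of the 19 retained probes for B-cell precursor markers, 16 had positive differences (13 without knockdown replicate 1), with a median of 0.23. None was called, while 4 were called as higher with the replicate block (CD22, CD79B and both IGLL1 probes). With that block, 3.03% of all retained probes were called. The 3 lower probes were those of RAG2 (-0.44, limma adjusted p = 0.204), RAG1 (-0.10) and PAX5 (-0.04), and VPREB1 was not retained. CD22 was called in 5 of the 15 settings that kept single probes, the others being normexp with quantile normalization, spike-in scaling, the trended robust prior and leaving out control replicate 1. The mean level of this list ran from 13.09 to 13.12 on the control arrays and from 13.26 to 13.44 on the knockdown arrays. Of the mature B-cell and plasma-cell markers, 4 of 8 genes were retained and CD27 was called, with a fall of 1.14 (adjusted p = 0.00314), and 3 genes were flagged well above background on none of the 6 arrays. The monocyte, macrophage and dendritic cell list held 4 retained genes, of which MPO was called and fell by 2.02 (adjusted p = 0.0013), whereas CD14 (-0.13), CSF1R (-0.05) and CLEC10A (-0.03) were not called and lay above 0 under spike-in scaling. CLEC10A was flagged well above background on none of the arrays. Without control replicate 3 the list had 1 probe higher and 3 lower. The mean level of this list, from 8.62 to 8.71 on the control arrays and from 8.01 to 8.23 on the knockdown arrays, differed mainly through MPO. None of the 7 retained probes for T-cell and NK-cell markers was called, with mean levels of 7.38 to 7.47 in control and 7.58 to 7.85 in knockdown and the largest differences for CD2 (0.69, adjusted p = 0.548, and 0.16 without knockdown replicate 2) and NKG7 (0.62, adjusted p = 0.148). For mature B-cell and plasma-cell markers the mean levels were 10.25 to 10.32 and 9.84 to 10.12, with CD27 the largest difference. Of that list, SDC1 (-0.43, adjusted p = 0.487, and 0.0593 with the replicate block), XBP1 (0.25, adjusted p = 0.574) and MS4A1 (0.06, adjusted p = 0.944) were not called, so its retained genes lay in both directions. Without knockdown replicate 1 its split was 1 higher and 3 lower. The part of these marker changes in the class II values was not tested.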

How the data were processed

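REH RNA (3 control and 3 knockdown cultures, called biological triplicates by the study) was hybridised to 6 one-color Agilent arrays. The authors deposited scanner files with spot intensities and other values (flags), made with Feature Extraction 10.7.1.1 per the file headers and not normalized between arrays, and a table of normalized log2 values. The median spot intensity was variance-stabilized with the vsn model, written anew (0.9 of the residuals kept). The result correlated with the deposited log2 values at r of 0.99906 to 0.99967 per array over 27869 probes. Outlier-flagged spots were left out and spots of a probe averaged. Probes over 1.1 times the 0.95 quantile of the negative controls on at least 60% of a group's arrays were retained, 29069 of 57176. On the generalised log2 scale, changes of dim probes are understated. Symbols were matched for 25728 of 34134 catalogue probes (75.37%). The comparison used limma 3.58.1 under R 4.3.3 (two-sided, no block, Benjamini-Hochberg adjustment), which was also tested on simulated data. With 3 arrays against 3, an exact permutation test cannot give p under 0.1, and the number of arrays limits the precision. All arrays came from 1 slide and 1 scan, and slide row 1 held control replicates 1 and 2 only. Same-numbered arrays deviated together (r = 0.396, 0.255 and 0.190 across probes), so the label's replicate numbers were taken to pair the arrays. Control replicate 2 with knockdown replicate 3 (0.179) and control replicate 3 with knockdown replicate 2 (0.154) came close to these values, so numbers 2 and 3 are little set apart from each other.

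Every class II probe is reported. In the pathway lists, genes with a called probe and the 2 largest differences by the brightest probe are named, and a few others (HLA-DRB3, HLA-DRB4, HLA-DRB5, HLA-DQB1, CTSS, IFI30 and MIF) were added for their role after their values were seen, as were the marker genes RAG1, RAG2, PAX5, VPREB1, CD14, CSF1R, CLEC10A, CD2, NKG7, SDC1, XBP1 and MS4A1. Members and lists were chosen with earlier results of these data known. The alternatives were 75th percentile scaling, normexp (offset 50) with quantile normalization, the deposited values, spike-in scaling, no filter, the well-above-background filter, a trended robust prior, the replicate block, the slide row as a term, averaging the probes of a symbol, and leaving out each array.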

Additional observations from a re-analysis of the deposited data

How the results depend on the processing

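None of the 16 class II, CD74 and CIITA probes was called under any of the 16 alternative settings, where the lowest adjusted p was 0.148, and the pathway lists held 2 or 3 called probes throughout. The number of called probes on the whole array was 224 with no filter, 881 with the replicate block, 245 with the slide row as a term, and 177 to 479 when 1 array was left out, against 452. Within the gene lists, the replicate block changed no other call than those given for the B-cell precursor markers. Of 153 class II values outside the leave-one-out settings, 1 for each probe or, with probes averaged, 1 for each gene, 20 changed direction, 9 of them with spike-in scaling; none of them was called. With spike-in scaling they were HLA-DPA1 (0.19 and 0.12), HLA-DPB1 (0.21, 0.12 and 0.11), HLA-DMB (0.22), HLA-DOA (0.12 and 0.14) and CIITA A_32_P209960 (0.19). With 75th percentile scaling they were CIITA A_32_P209960 (0.00689), HLA-DPB1 A_24_P166443 (0.0289) and HLA-DRA (-0.00523), with normexp and quantile normalization HLA-DPA1 A_23_P30913 (0.00486) and HLA-DPB1 A_24_P166443 (0.0330), with the slide row CIITA A_32_P209960 (0.00816), HLA-DMB (0.0580), HLA-DPB1 A_24_P166443 (0.0774) and A_33_P3271635 (0.0420) and HLA-DRA (-0.0162), and the mean of the HLA-DPB1 probes (-0.0674) set against A_23_P258769, the other 3 probes being negative already. The causes were not tested. Leaving out 1 array gave ranges that crossed 0 for CIITA A_32_P209960 (-0.0922 to 0.0350), HLA-DMA A_23_P42306 (-0.0412 to 0.152), HLA-DMB (-0.142 to 0.0464), HLA-DOA A_33_P3278968 (-0.173 to 0.0064), HLA-DPA1 A_23_P30913 (-0.112 to 0.0027), HLA-DPB1 A_23_P258769 (-0.187 to 0.112) and A_24_P166443 (-0.175 to 0.0609) and HLA-DRA (-0.0554 to 0.0549). HLA-DOA A_32_P356316 ran from -0.157 to -0.0437. The slide-row setting compares 1 control with 3 knockdown arrays within slide row 2. Changes of probes with signal near background, such as PRDM1 A_23_P350451, CD44 and CTSZ, are understated on this scale.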
